A study of Mus musculus with 6 samples.

Results

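The interleukin-1 system examined here comprised 9 genes chosen by name from the 21899 genes listed in the expression table: the ligands Il1b, Il1a, Il33 and Il18, the receptor antagonist Il1rn, the receptors Il1r1, Il1r2 and Il1rap, and the inflammasome sensor Nlrp3. All 9 were found in the table under these symbols, and the rule itself sets no threshold on a measured value. RNA was sequenced from 6 samples of tumours grown from LLC-luc cells, a luciferase-expressing Lewis lung carcinoma line, placed under the skin of male C57BL/6 mice. The study asked how phycocyanin, a light-absorbing protein from Spirulina, and its selenium-enriched form act with laser light on such tumours.

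Each group held 2 samples (n = 2), and all 6 samples came from tumours that received the laser. The Laser group had the laser without either photosensitizer, the PC-La group had phycocyanin injected before the laser, and the SePC-La group had selenium-enriched phycocyanin injected before it. Per the labels, injections were given every 5 days and the 620 nm laser was applied 4 h after injection for 10 min, whereas the methods of the study describe a longer wavelength and a shorter interval between injections. No tumour that went without the laser was analysed here, so the Laser group is the only control. Nothing in the labels ties a sample to a mouse, and p-values therefore measure the spread between these samples, which may be technical in part.

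Interleukin-1α and interleukin-1β act through one receptor, formed by Il1r1 and the co-receptor Il1rap, and signal by way of MyD88 and NF-κB to raise neutrophil chemokines and other inflammatory genes. The antagonist encoded by Il1rn occupies that receptor without signalling, and the decoy receptor Il1r2 binds the ligand but cannot pass the signal on. Interleukin-1β and interleukin-18 are made as inactive precursors that caspase-1 cuts once an inflammasome such as that of Nlrp3 assembles, whereas interleukin-33 is kept in the nucleus of stromal cells and released on damage. In bulk tumour RNA, fewer cells of a type and less RNA per cell cannot be told apart, and none of the processing, release or binding steps is visible.

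SePC-La samples had the highest levels of 6 members, Il1b, Il1rn, Il1r2, Il1a, Il1rap and Nlrp3, with both samples above all 4 samples of the other groups. Among all tested genes, SePC-La did not overlap Laser in 40.6% and PC-La in 65.5%, in either direction, and the share above all 4 other samples was not counted. Il1a rested on 10 to 36 reads per sample, and the margin of Il1rap over Laser was 0.018 FPKM. On the mean, the antagonist Il1rn was 2.75-fold and the decoy receptor Il1r2 2.31-fold above the Laser group, and these were the only members whose difference from Laser passed the fold and unadjusted p criterion, as 0.682% of all tested genes did. No member met this criterion between PC-La and Laser. No member passed limma at an adjusted p under 0.05 in any comparison, and the Laser group itself was split, with more than 10-fold between its samples in Il1b and Il33.

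The genes lie on 6 chromosomes of the mouse (GRCm38 coordinates, GENCODE M21 models). Il1b (chr2:129364570-129371139, minus strand) and Il1a (chr2:129299610-129309972, minus strand) are neighbours, and Il1rn (chr2:24336853-24351494, plus strand) is on the same chromosome. Il1r2 (chr1:40074079-40125231) precedes Il1r1 (chr1:40225080-40317257) on the plus strand of chromosome 1. Il18 (chr9:50554827-50581840), Nlrp3 (chr11:59541568-59566956), Il1rap (chr16:26581704-26730117) and Il33 (chr19:29925114-29960718) lie on the plus strand of their chromosomes. Values refer to all exons of a gene together, so transcripts from alternative starts were not separated.

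The promoters of Il1rn, Il1r2 and Il1a are shown because Il1rn and Il1r2 passed the criterion and because Il1rn and Il1a hold the AP-1 word TGACTCA on either strand. A promoter of Il33 that holds another searched word is not printed. Each runs from 250 bases before to 50 bases after a RefSeq transcript start (GRCm38.p6), written 5′ to 3′ on the gene's strand, with a match to the AP-1 word in capitals. They span chr2:24336610-24336909 (plus) for Il1rn, chr1:40085843-40086142 (plus) for Il1r2 and chr2:129309923-129310222 (minus) for Il1a.
Il1rn: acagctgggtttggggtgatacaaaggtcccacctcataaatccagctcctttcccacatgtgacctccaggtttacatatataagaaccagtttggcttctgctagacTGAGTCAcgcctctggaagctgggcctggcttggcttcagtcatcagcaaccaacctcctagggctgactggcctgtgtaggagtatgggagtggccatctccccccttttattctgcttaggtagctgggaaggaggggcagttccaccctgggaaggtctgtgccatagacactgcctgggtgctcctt
Il1r2: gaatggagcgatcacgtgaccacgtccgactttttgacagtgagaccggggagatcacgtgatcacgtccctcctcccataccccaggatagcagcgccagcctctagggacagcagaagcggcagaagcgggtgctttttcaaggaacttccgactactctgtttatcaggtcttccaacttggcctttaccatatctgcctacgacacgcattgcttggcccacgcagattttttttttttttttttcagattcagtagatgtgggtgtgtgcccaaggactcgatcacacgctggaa
Il1a: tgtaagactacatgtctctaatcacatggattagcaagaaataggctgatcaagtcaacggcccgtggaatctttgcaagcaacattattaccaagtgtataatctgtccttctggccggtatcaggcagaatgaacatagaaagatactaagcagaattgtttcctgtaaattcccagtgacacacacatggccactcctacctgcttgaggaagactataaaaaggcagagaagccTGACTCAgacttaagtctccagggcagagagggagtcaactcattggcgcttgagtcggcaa

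Across both strands of the 14 promoters that RefSeq lists for the 9 genes, the AP-1 word TGACTCA occurred in 2, compared with 5.20% of all 32851 mouse promoters in the table. In Il1a it began 12 bases and in the upstream promoter of Il1rn 141 bases before the start, and the other 2 listed promoters of Il1rn did not hold it. The C/EBP word TTGCNNNAA was found in 1, the promoter of Il33 that begins at position 29924863, where 9.56% of all promoters hold it. The NF-κB-like word GGGANTTTC was found in 0 of the 14 and in 1.11% of all promoters, which says only that these letters are not in these windows. The printed promoters of Il1rn and Il1a held 1 match each and that of Il1r2 none, so no 2 words could share positions there. Il1rn was the only gene of the 9 with 3 listed promoters, and its alternative first exons give secreted and intracellular forms of the antagonist that the gene-level values cannot separate.

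Levels are given in FPKM, reads scaled by exon length and by library size, which takes gene length into account and so allows genes to be compared. Averaged over the 6 samples, Il1b (67.4 FPKM) and Il33 (59.4 FPKM) were highest, at the 96.5th and 95.9th percentile of the 16808 genes above 0 in any sample, followed by Il1r1 at 34.4 FPKM. Il1r2 (10.3 FPKM), Il18 (9.06 FPKM), Il1rap (7.76 FPKM) and Il1rn (6.01 FPKM) formed a middle range in which the sample values overlapped, Nlrp3 averaged 3.86 FPKM, and Il1a averaged 0.776 FPKM. Il1a was the lowest of the 9 in every sample. Il1b ranked first in 3 samples, Il33 in 2 and Il1r1 in 1, Laser replicate 2, and Il1r1 was above Il1r2 in all 6, with no overlap between 21.4 FPKM at the lowest and 21.1 FPKM at the highest. Il1b, Il33 and Il1r1 overlapped with each other, as did the genes from Il1r2 to Nlrp3 with their neighbours, whereas Il1a was under the range of Nlrp3.

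**Figure D1:**
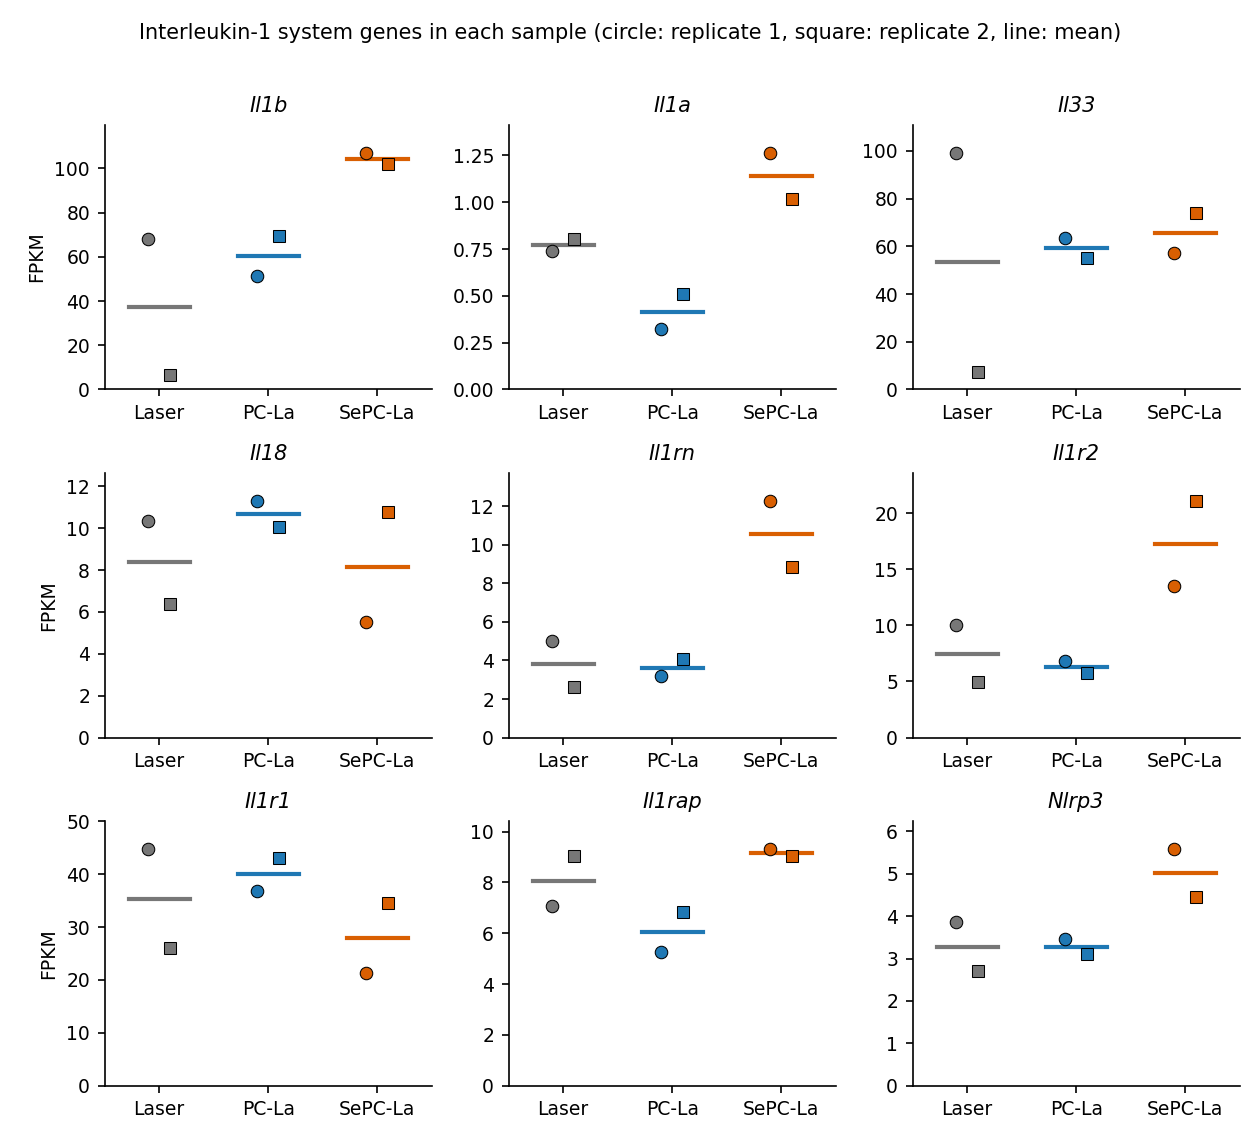
Each panel plots 1 gene in FPKM on a linear axis from 0, by group, with a circle for replicate 1, a square for replicate 2 and a line at the group mean (n = 2). Both SePC-La points lie above all other points for Il1b, Il1a, Il1rn, Il1r2, Il1rap and Nlrp3, and the Laser points for Il1b and Il33 are more than 10-fold apart.

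Differences were tested with limma on log2(FPKM + 1) over the 10853 genes whose average reached 1 FPKM, and a gene was counted at the criterion where the log2 fold change exceeded 1 in size with an unadjusted p under 0.05. Adjusted p-values are Benjamini-Hochberg values over all genes tested. Of the 9 members, 8 passed the filter on low values and Il1a did not, so Il1a was fitted without the filter. A fold change on this scale understates the ratio of FPKM for low genes. PC-La and SePC-La were each compared with the same Laser samples, so these comparisons share them.

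The ligand Il1b, made mainly by myeloid cells, measured 68.2 and 6.36 FPKM in the Laser samples, 51.5 and 69.6 FPKM in the PC-La samples, and 107 and 102 FPKM in the SePC-La samples. SePC-La lay above every other sample, whereas Laser spanned nearly the whole range below it and overlapped PC-La. Group means were 37.3 ± 43.7 FPKM for Laser, 60.5 ± 12.7 FPKM for PC-La and 104 ± 3.5 FPKM for SePC-La (SD, n = 2). The log2 fold change from Laser was 2.22 ± 1.06 (SE) for SePC-La, with a limma adjusted p of 0.461, and 1.43 ± 1.06 for PC-La, with an adjusted p of 0.764. Between SePC-La and PC-La it was 0.79, with a 95% interval from -1.97 to 3.56. The spread behind this interval was pooled with that of the Laser samples. A limma fit of only the 4 samples compared gave the same difference, with a standard error of 0.16 and an unadjusted p of 0.0035. This difference stayed under the fold set by the criterion. In that fit, 3624 of the 10853 tested genes had an unadjusted p under 0.05.

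Laser replicate 2 decided the size of the Il1b difference. Its Il1b level was 10.7-fold under that of Laser replicate 1, and only 0.184% of the 10853 tested genes lay as far apart between these samples on the log2 scale. Without it, the log2 fold change of Il1b from Laser was 0.61 for SePC-La and -0.19 for PC-La, and without Laser replicate 1 it was 3.84 and 3.05. Il1b rested on 214 reads in the lowest sample and 3395 in the highest, so counting error is small beside this gap.

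Interleukin-33, encoded by Il33, is an alarmin made largely by stromal and epithelial cells. Il33 measured 99.1 and 7.50 FPKM in Laser, 63.6 and 55.0 FPKM in PC-La, and 57.2 and 73.8 FPKM in SePC-La. Both treated groups lay between the Laser samples, so the Laser range held all other samples. The log2 fold change from Laser was 1.04 ± 1.16 for PC-La and 1.18 ± 1.16 for SePC-La, with limma adjusted p-values of 0.816 and 0.691. Without Laser replicate 2 both turned negative, to -0.73 and -0.60, and without Laser replicate 1 they were 2.82 and 2.96. SePC-La and PC-La overlapped in Il33, with a difference of 0.13 and a 95% interval from -2.90 to 3.17. Here too the spread was pooled with that of the Laser samples.

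Laser replicate 2 also differed from Laser replicate 1 in cell type markers, though these did not follow Il33 across the other samples. The summed FPKM of 7 fibroblast markers was 288 in that sample against 1243 in Laser replicate 1, and it was 1717 and 1568 for the PC-La tumours but 122 and 634 for those of SePC-La, with all 7 above 0 in every sample. Its sum over 6 skeletal muscle markers was 137 FPKM, and that of the other samples lay between 1.5 and 20.9 FPKM. Mast cell and basophil markers (7 genes) summed to 2.54 FPKM there and to 118 FPKM in Laser replicate 1, but also to 1.94 and 94.6 FPKM for SePC-La and 23.7 and 12.5 FPKM for PC-La, where Il33 differed far less. The SePC-La samples likewise had lower fibroblast sums than PC-La but Il33 in its range. The part of these cell types in the Il33 values was not tested.

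Il1a, the second ligand of the interleukin-1 receptor, rested on few reads. It measured 0.741 and 0.804 FPKM in Laser, 0.324 and 0.508 FPKM in PC-La, and 1.26 and 1.02 FPKM in SePC-La, on 23 and 28, 10 and 15, and 36 and 35 reads. The groups did not overlap and stood in the order PC-La, Laser, SePC-La. Exact 95% Poisson intervals, which cover counting error only, ran from 0.155 to 0.596 FPKM for the lowest sample and from 0.884 to 1.75 FPKM for the highest, but neighbouring groups overlapped in them. The mean of SePC-La was 2.74-fold that of PC-La, and the log2 difference was 0.60 ± 0.14 with a limma adjusted p of 0.199. From Laser, the log2 fold change was -0.33 for PC-La and 0.27 for SePC-La, with adjusted p-values of 0.782 and 0.589. Adding 0.1 instead of 1 before the logarithm took the difference between SePC-La and PC-La to 1.28, which met the criterion.

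Il18, which drives interferon-γ production by lymphocytes, showed no ordered difference. It measured 10.4 and 6.37 FPKM in Laser, 11.3 and 10.0 FPKM in PC-La, and 5.50 and 10.8 FPKM in SePC-La. All 3 groups overlapped. The log2 fold change from Laser was 0.35 for PC-La (95% interval -0.46 to 1.15) and -0.06 for SePC-La (-0.87 to 0.74), and between SePC-La and PC-La it was -0.41 (-1.22 to 0.39), with limma adjusted p-values of 0.791, 0.947 and 0.454. Il18 overlaps Tex12 and Bco2, on the opposite strand and also in the table, and whether the counting used strand is not given in the sources used here.

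Il1rn, the receptor antagonist, met the criterion in both comparisons with SePC-La. It measured 5.03 and 2.64 FPKM in Laser, 3.19 and 4.08 FPKM in PC-La, and 12.3 and 8.84 FPKM in SePC-La. Both SePC-La samples were above the other 4, and PC-La lay within the Laser range. The log2 fold change was 1.29 ± 0.28 from Laser to SePC-La (95% interval 0.61 to 1.96) and 1.31 ± 0.28 from PC-La to SePC-La (0.63 to 1.98), both at the criterion, with limma adjusted p-values of 0.376 and 0.126. PC-La differed from Laser by -0.02, with an interval from -0.70 to 0.65. Without Laser replicate 2, Il1rn no longer met the criterion against Laser, at a log2 fold change of 0.92.

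The decoy receptor gene Il1r2, known from neutrophils and alternatively activated macrophages, also met the criterion in both comparisons with SePC-La. Il1r2 measured 10.0 and 4.96 FPKM in Laser, 6.81 and 5.74 FPKM in PC-La, and 13.5 and 21.1 FPKM in SePC-La. SePC-La was again above all other samples, with PC-La inside the Laser range. The log2 fold change was 1.14 ± 0.34 from Laser to SePC-La and 1.3 ± 0.34 from PC-La to SePC-La, both at the criterion, with limma adjusted p-values of 0.376 and 0.134, and PC-La differed from Laser by -0.16 (95% interval -0.98 to 0.66). Without Laser replicate 2 the first was 0.70, and without SePC-La replicate 2 the differences were 0.84 and 1.00 (0.998 before rounding), and none of these met the criterion.

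The neutrophil marker sum, like Il1b, Il1rn and Il1r2, was highest in both SePC-La samples. Between the replicates of PC-La and of SePC-La, it followed Il1r2 but went opposite to Il1b and Il1rn. The sum over 10 neutrophil markers was 165 and 42.5 FPKM in Laser, 159 and 93.3 FPKM in PC-La, and 345 and 469 FPKM in SePC-La, with 7 of 10 above 0 in all samples and none at 0 throughout. S100a8 and S100a9 made up 83.7% and 81.5% of the SePC-La sums, and without them the sums were 37.9 and 19.0 FPKM for Laser, 36.0 and 27.6 FPKM for PC-La and 56.2 and 86.8 FPKM for SePC-La. Both SePC-La samples were above all others in 6 of the 10 markers, and the neutrophil surface marker Ly6g, named after its values were seen, overlapped at 0.514 FPKM for SePC-La replicate 1 and 0.543 FPKM for PC-La replicate 1. For comparison, SePC-La did not overlap Laser in 40.6% and PC-La in 65.5% of all tested genes, in either direction. The share with SePC-La above all others was not counted. Of the calprotectin genes, S100a8 measured 61.8 and 82.7 FPKM in SePC-La and between 9.39 and 25.6 FPKM elsewhere, and S100a9 measured 226 and 299.8 FPKM in SePC-La and between 14.1 and 104 FPKM elsewhere. Monocyte and macrophage markers did not follow: their sum was 603 and 629 FPKM in Laser, 802 and 864 FPKM in PC-La, and 364 and 671 FPKM in SePC-La, and Cd68 and Adgre1 overlapped between Laser and SePC-La. Erythroid and platelet marker sums were also highest in both SePC-La samples. Erythroid markers (5 genes) summed to 127 and 13.6 FPKM for Laser, 263 and 361 FPKM for PC-La and 613 and 932 FPKM for SePC-La. Platelet markers (5 genes) summed to 75.7 and 90.6, 20.1 and 18.4, and 92.0 and 146 FPKM in the same order. Unlike the neutrophil sum, the platelet sum was lowest in PC-La, and the erythroid sum of PC-La was above both Laser samples. Only 2 of the 5 platelet markers averaged 1 FPKM or more, and Gp1bb was at 0 throughout. The part of these cell types in the Il1b, Il1rn and Il1r2 values was not tested.

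The signalling receptor Il1r1, widely expressed on stromal cells, had its lowest mean in SePC-La. It measured 44.7 and 26.0 FPKM in Laser, 36.9 and 43.0 FPKM in PC-La, and 21.4 and 34.5 FPKM in SePC-La. SePC-La lay under PC-La without overlap, and Laser overlapped both. None of the differences met the criterion, with log2 fold changes of 0.22 and -0.32 from Laser and -0.53 ± 0.32 between SePC-La and PC-La, limma adjusted p-values of 0.847, 0.688 and 0.329, and a 95% interval for the last from -1.31 to 0.24. The fibroblast marker sum, given above, moved with Il1r1: it was 122, 288 and 634 FPKM in the 3 samples with the lowest Il1r1 and between 1243 and 1717 FPKM in the other 3. Its part in the Il1r1 values was not tested.

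The co-receptor gene Il1rap, shared by the interleukin-1 and interleukin-33 receptors, measured 7.07 and 9.03 FPKM in Laser, 5.26 and 6.84 FPKM in PC-La, and 9.30 and 9.05 FPKM in SePC-La. PC-La was under and SePC-La above both Laser samples, by a margin of 0.018 FPKM on the SePC-La side. The log2 fold change was -0.36 ± 0.17 for PC-La and 0.18 ± 0.17 for SePC-La, with limma adjusted p-values of 0.753 and 0.680. Between SePC-La and PC-La it was 0.54, with an adjusted p of 0.153.

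Nlrp3, the sensor that licenses caspase-1, measured 3.86 and 2.70 FPKM in Laser, 3.47 and 3.10 FPKM in PC-La, and 5.58 and 4.46 FPKM in SePC-La. SePC-La was above the other 4 samples and PC-La was inside the Laser range. Its log2 fold change was 0.50 ± 0.19 from Laser (95% interval 0.05 to 0.95) and 0.49 ± 0.19 from PC-La (0.03 to 0.94), with limma adjusted p-values of 0.388 and 0.189, both under the fold set by the criterion. PC-La differed from Laser by 0.01, with an interval from -0.44 to 0.47.

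**Figure D2:**
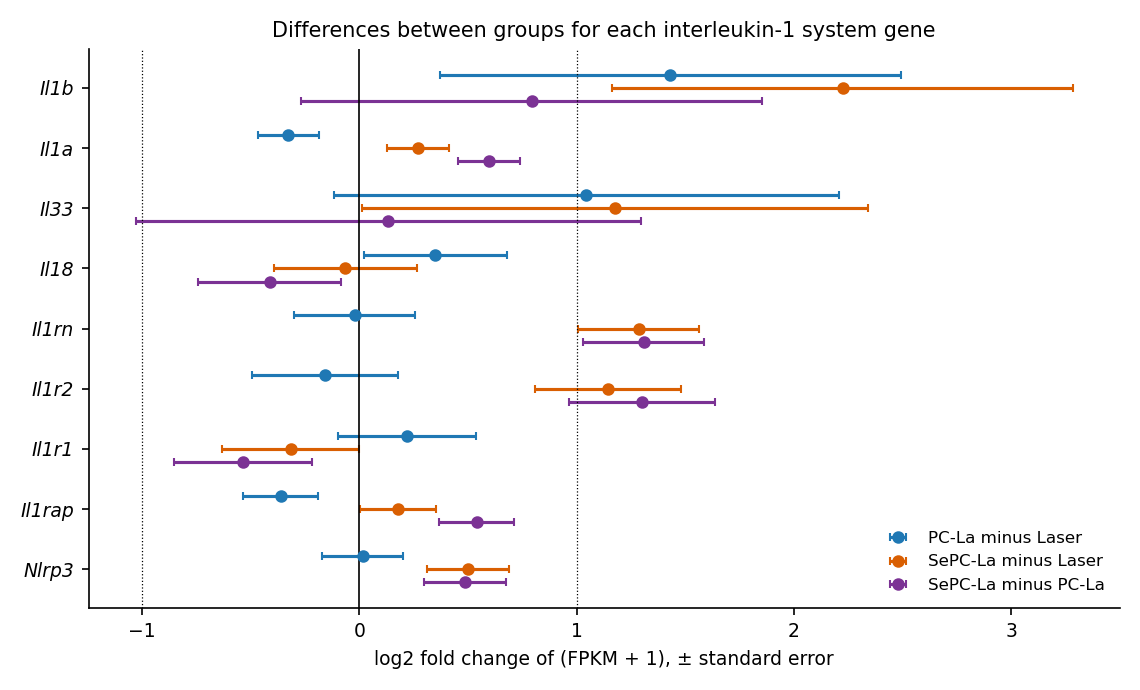
Points give the log2 fold change of FPKM + 1 and bars its standard error from limma for each gene, in blue for PC-La minus Laser, in orange for SePC-La minus Laser and in purple for SePC-La minus PC-La, with dotted lines at -1 and 1. Il1rn and Il1r2 lie past 1 in both SePC-La comparisons with bars of 0.28 and 0.34, whereas the bars of Il1b and Il33 exceed 1.

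Counted together, 0 of the 8 tested members met the criterion for PC-La minus Laser, 2 for SePC-La minus Laser and 2 for SePC-La minus PC-La, Il1rn and Il1r2 in each of the latter, where 1.29%, 0.682% and 2.98% of all tested genes did. At an unadjusted p under 0.05 the counts were 0, 3 and 4, beside 5.78%, 12.1% and 24.3% of all genes. At an adjusted p under 0.05 limma called 0 members in each comparison and 0% of all genes. Over the 9 members the median log2 fold change was 0.01, 0.50 and 0.54, beside -0.00062, -0.06 and -0.07 over all tested genes.

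Groups did not overlap in 2 members for PC-La minus Laser (Il1a and Il1rap, both lower), in 6 for SePC-La minus Laser (all higher) and in 7 for SePC-La minus PC-La (6 higher, and Il1r1 lower). Among all tested genes the groups did not overlap in 42%, 40.6% and 65.5%, counted in both directions, so the 7 of 9 for SePC-La minus PC-La is close to that background. The 6 members higher in SePC-La were Il1a, Il1b, Il1rn, Il1r2, Il1rap and Nlrp3 against either group.

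**Figure D3:**
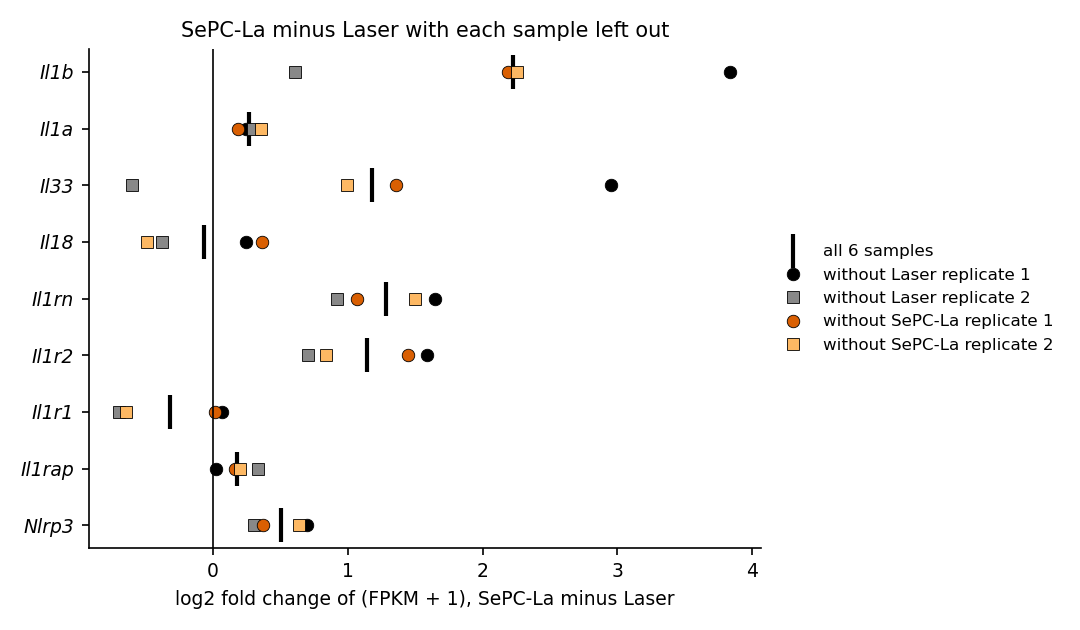
The horizontal axis gives the log2 fold change of FPKM + 1 for SePC-La minus Laser, with a black bar for all 6 samples and 1 symbol for each of the 4 compared samples left out. Il1b runs from 0.61 to 3.84 and Il33 from -0.60 to 2.96 depending on which Laser sample is left out, whereas Il1rn stays between 0.92 and 1.65 and Il1r2 between 0.70 and 1.59.

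Ratios within a sample set agonist against antagonist and decoy against signalling receptor without any scaling between samples. For Il1b to Il1rn, the Laser samples gave ratios of 13.6 and 2.41, the PC-La samples 16.2 and 17.0, and the SePC-La samples 8.72 and 11.5. SePC-La lay under PC-La without overlap, with a mean log2 difference of -0.73, and inside the Laser range, which Laser replicate 2 set. Between PC-La and Laser the log2 difference was 1.54, and without Laser replicate 2 it was 0.29.

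For Il1r2 to Il1r1, the Laser samples gave ratios of 0.224 and 0.191, the PC-La samples 0.184 and 0.134, and the SePC-La samples 0.631 and 0.610. Replicates were close and SePC-La stood apart, 3.0-fold above Laser and 3.96-fold above PC-La. The log2 difference from Laser was 1.59, between 1.47 and 1.70 as each sample was left out, and that from PC-La was 1.98, between 1.75 and 2.22. In the exact two-sided permutation test each gave p = 0.333, the smallest p that 2 against 2 samples allow, so the design cannot reach 0.05. The neutrophil marker sum, given above, was also highest in both SePC-La samples, and the fibroblast marker sum moved with Il1r1, and the part of neither in the ratio was tested.

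**Figure D4:**
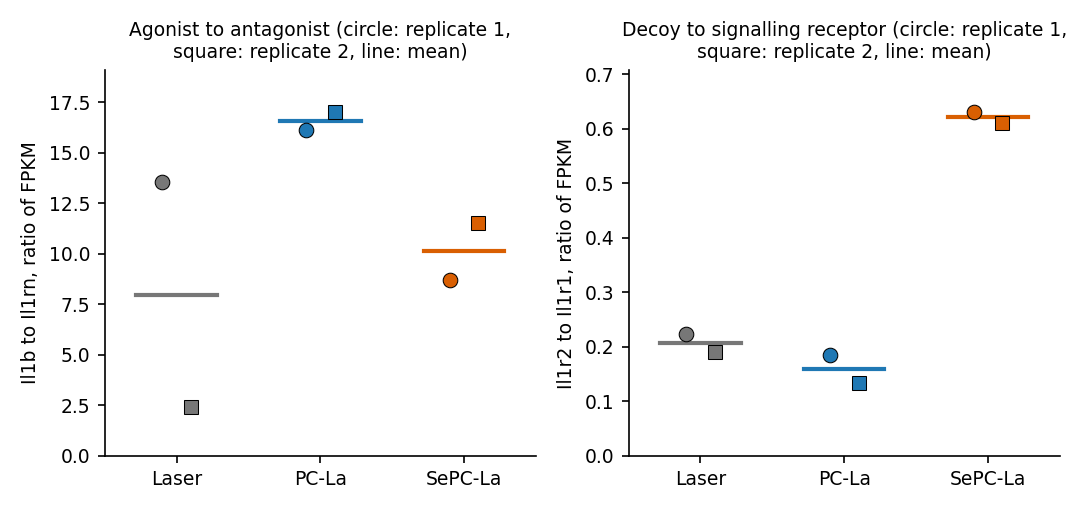
Left, the ratio of Il1b to Il1rn, and right, the ratio of Il1r2 to Il1r1, each from FPKM within a sample on a linear axis from 0, with a circle for replicate 1, a square for replicate 2 and a line at the group mean. The SePC-La points at 0.631 and 0.610 on the right lie above all others, which reach at most 0.224.

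Some pairs of members varied together across the 6 samples, and others went opposite ways, down to a Pearson r of -0.678 for Il1rap and Il18. The member pairs below had the highest Pearson r among the tested members. They are given as a description of points that share their groups and libraries. On log2(FPKM + 1), Il1rn and Nlrp3 had a Pearson r of 0.955 (Spearman rho 0.943) and Il1r1 and Il18 of 0.901 (0.543), and without Laser replicate 2 these were 0.940 and 0.880 over 5 samples. Il1b and Il33 had 0.928 (0.257), which dropped to -0.108 without that sample, so the joint pattern of these ligands rests on it. The tested genes most like Il1b outside the set were Map2k6 (r 0.994), Fam107b (0.994), Tspan31 (0.991), 4933434E20Rik (0.991) and Pmaip1 (0.991), and they too had their lowest value in Laser replicate 2, such as 1.73 FPKM against 4.74 to 6.41 FPKM for Map2k6.

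Genes that interleukin-1 is known to induce, a list of 20 of which 18 were tested, mostly had higher levels in SePC-La, with a positive log2 fold change from Laser in 17 of 18. Over all tested genes it was positive in 4368 of 10853. No gene of the list met the criterion for PC-La minus Laser, 2 did for SePC-La minus Laser (Cxcl1 and Lcn2) and 5 for SePC-La minus PC-La (Cxcl1, Cxcl2, Cxcl3, Nfkbia and Lcn2), all higher in SePC-La, beside 1.29%, 0.682% and 2.98% of all tested genes. The median log2 fold change of the list was -0.01, 0.86 and 0.87, and 12 of the 18 were above both Laser samples in SePC-La, where 40.6% of all tested genes did not overlap in either direction. At an unadjusted p under 0.05 the counts were 1, 7 and 9, beside 5.78%, 12.1% and 24.3% of all genes. Leaving out Laser replicate 1 raised the list's median log2 fold change for SePC-La minus Laser to 1.24, beside -0.04 over all tested genes. With Laser replicate 2 dropped instead, the list stood at 0.50, beside -0.08 over all tested genes. The size therefore depended on which Laser sample was kept. Which listed genes met the criterion also changed with the sample left out, in each comparison. Dropping SePC-La replicate 1 or 2 gave 1.00 or 0.71. For PC-La minus Laser, omitting Laser replicate 1 or 2 moved the list to 0.34 or -0.31, beside 0.01 or -0.01 over all tested genes. Between SePC-La and PC-La, the median of the 18 listed genes stayed between 0.66 and 1.015 as each sample was left out. These genes answer to other signals as well, such as TNF and Toll-like receptors.

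The neutrophil chemokine Cxcl1 measured 55.6 and 17.4 FPKM in Laser, 35.0 and 29.1 FPKM in PC-La, and 80.4 and 131 FPKM in SePC-La, and Cxcl2 measured 31.6 and 6.74, 11.4 and 7.27, and 48.7 and 51.0 FPKM. SePC-La was the highest group without overlap in both. Cxcl1 differed from Laser by 1.68 ± 0.55 and from PC-La by 1.66 ± 0.55 on the log2 scale, with limma adjusted p-values of 0.385 and 0.169. From PC-La, the related chemokine Cxcl3 differed by 2.51 ± 0.75 and Cxcl2 by 2.32 ± 0.68, with adjusted p-values of 0.153 and 0.151.

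Lcn2, an iron-sequestering protein of neutrophil granules and stressed epithelium, measured 4.97 and 1.71 FPKM in Laser, 2.22 and 2.42 FPKM in PC-La, and 8.0 and 11.3 FPKM in SePC-La. Nfkbia, the inhibitor that NF-κB itself induces, measured 102 and 57.5, 58.4 and 62.5, and 134 and 174 FPKM. The SePC-La samples were above all others in both. From PC-La the log2 fold change was 1.67 ± 0.38 for Lcn2 and 1.32 ± 0.28 for Nfkbia, each with a limma adjusted p of 0.126. The neutrophil marker sum was also highest in both SePC-La samples, though it fell from PC-La replicate 1 to replicate 2 where these genes rose. Its part in their values was not tested.

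**Figure D5:**
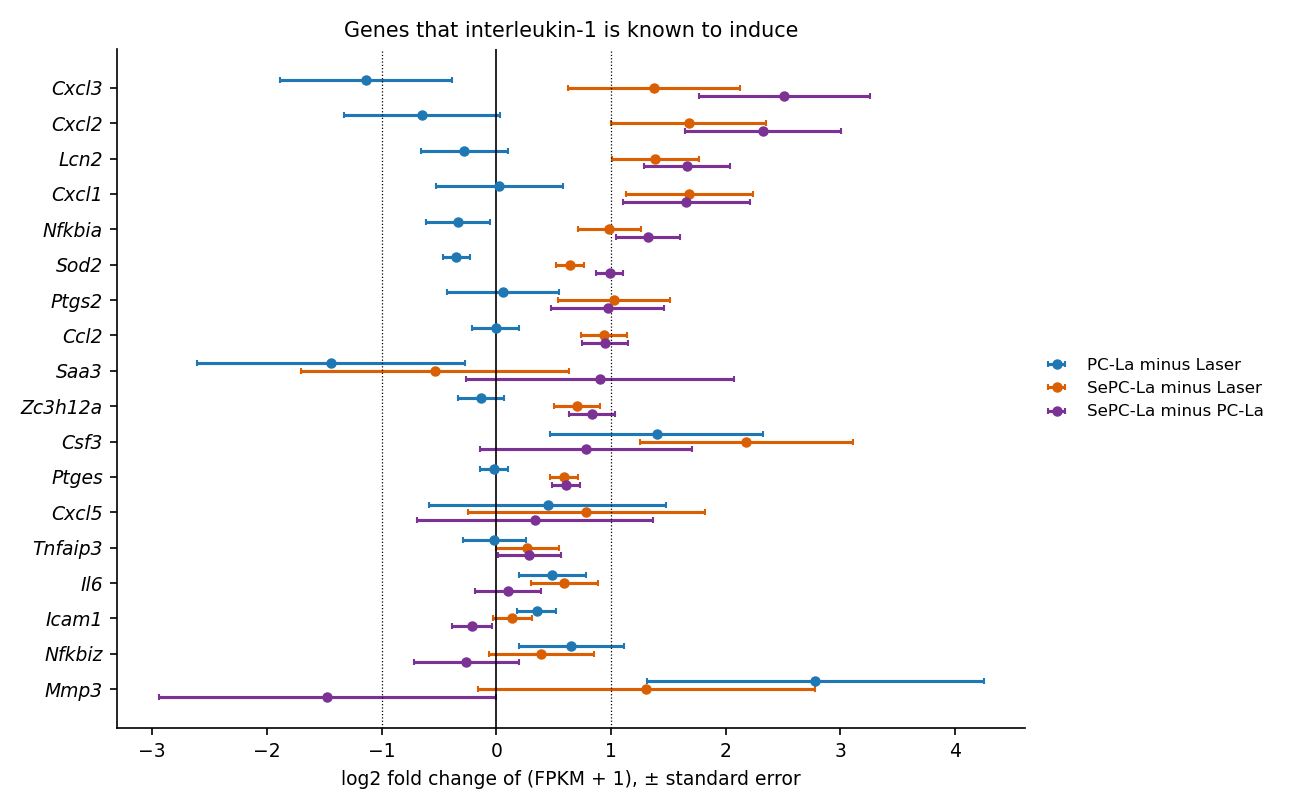
Points give the log2 fold change of FPKM + 1 and bars its standard error for the 18 tested genes that interleukin-1 is known to induce, in blue for PC-La minus Laser, in orange for SePC-La minus Laser and in purple for SePC-La minus PC-La, with dotted lines at -1 and 1. Cxcl3, Cxcl2, Lcn2, Cxcl1 and Nfkbia are at the top with purple points from 1.32 to 2.51.

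Of the 28 other genes of the pathway that were tested, 0, 1 and 1 met the criterion in the order PC-La minus Laser, SePC-La minus Laser and SePC-La minus PC-La, shares of 0%, 3.57% and 3.57% beside 1.29%, 0.682% and 2.98% of all tested genes. Of 13 other ligands, receptors and binding proteins of the interleukin-1 family, 4 were at 0 in all samples and 5 were tested, and the 1 at the criterion was Il36g, an epithelial and myeloid cytokine listed in the table as Il1f9. It measured 1.54 and 0.103 FPKM in Laser, 0.854 and 0.689 FPKM in PC-La, and 3.53 and 3.02 FPKM in SePC-La, with log2 fold changes of 1.35 ± 0.38 from Laser and 1.27 ± 0.38 from PC-La and limma adjusted p-values of 0.376 and 0.145. Il36g no longer met the criterion from Laser without Laser replicate 2 or SePC-La replicate 1, nor from PC-La without PC-La replicate 2 or either SePC-La sample. Its relatives Il36a and Il36b were above 0 in 1 sample each, at 0.0757 and 0.114 FPKM.

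In the 14 signalling genes below the receptor, none met the criterion, and the median log2 fold change was 0.04, -0.11 and -0.10 in the order PC-La minus Laser, SePC-La minus Laser and SePC-La minus PC-La. Myd88, the adaptor, stayed between 15.2 and 18.7 FPKM in all samples, and the kinase gene Irak1 measured 25 and 24.7 FPKM in Laser, 25.4 and 26.0 FPKM in PC-La, and 22.2 and 20.0 FPKM in SePC-La. Of 15 genes of inflammasomes and cytokine processing, 9 were tested and none met the criterion, with medians of -0.12, -0.11 and -0.37. Pycard, the adaptor of the Nlrp3 inflammasome, was under the filter at 0.455 to 1.02 FPKM, and Casp1, which cuts the ligands, measured 19.3 and 17.1, 20.9 and 24.1, and 13.8 and 20.3 FPKM, overlapping between Laser and SePC-La.

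The recovered depth was 14447792 to 17649490 reads per sample. The tissue is labelled lung cancer, and 3 of 7 normal lung epithelium markers (Sftpd, Scgb1a1 and Nkx2-1) were at 0 in all samples, with a sum over the 7 of 0.679 to 1.74 FPKM. Of 6 keratinocyte markers, 5 were at 0 in all samples. The sum over 6 carcinoma epithelium markers was 189 to 277 FPKM and that over T cell markers 2.74 to 8.99 FPKM. The median size of the log2 difference between replicates over all tested genes was largest for the Laser pair at 0.234, next to 0.110 for the PC-La pair and 0.190 for the SePC-La pair.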

How the data were processed

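Gene-level RNA-seq values of 6 tumour samples were used. The submitters' processing notes name HISAT2 2.0.5, HTSeq 0.9.1, DESeq 1.30.0 and build mm9, with no roles. The values deposited by the authors are FPKM, a unit inferred here because multiplying by the exon length of GENCODE M21 (GRCm38) gave whole reads in every sample (tolerance 0.05) for 97.9% of genes. Differences were tested with limma 3.58.1 (trend and robust moderation, R 4.3.3) on log2(FPKM + 1), in all 6 samples, over genes averaging 1 FPKM or more. FPKM values as deposited cannot enter the count model the study used. The recovered reads entered only an alternative fit, with voom. The criterion keeps the study's thresholds. The procedure was run on simulated data in which all genes had the same spread. That run does not cover a split like that between the Laser samples. Python 3.11.15 with pandas 2.3.3 and matplotlib 3.10.9 served for tables and plots.

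The members and the gene lists were chosen with earlier results of these data known. Named genes were the members, up to 6 genes per list at the criterion, the first 2 genes of each list, and the 5 genes most like Il1b. Other names are said to be chosen after their values were seen. Alternatives changed the pseudocount, filter, scaling, moderation, samples, replicate block and test. The Poisson intervals of Il1a assume independent reads, and the limma intervals assume independent samples with a spread pooled over the groups. 1 listed marker, Trac, was not found under that symbol. Il1a, Il1b, Il1r1, Il1r2 and Il1rap overlap annotated genes that are not used here, so their reads may be shared.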

Additional observations from a re-analysis of the deposited data

Results flagged for a closer look

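Il1a and Il1rap were the members in which every PC-La sample lay under and every SePC-La sample above the Laser samples, an ordering that 4.05% of all tested genes had. Neither gene passed the test against Laser in either group, and the gap of Il1rap on the SePC-La side was 0.018 FPKM. The log2 difference between SePC-La and PC-La was 0.60 for Il1a, on 10 to 36 reads per sample, and 0.54 for Il1rap. As a contrast in the same limma fit these differences had adjusted p-values of 0.199 and 0.153.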

How the results depend on the processing

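Only 2 samples per group were available, Il1a was limited by its 10 to 36 reads, and the Laser samples set most of what changed. As each sample was left out (limma pooled the spread, assuming that a lone sample varies like the other groups), members at the criterion numbered 0 to 2 for PC-La minus Laser, 0 to 4 for SePC-La minus Laser and 1 to 2 for SePC-La minus PC-La, and members at an adjusted p under 0.05 numbered 0 to 2 in each. For SePC-La minus Laser leaving out Laser replicate 1 gave 4, Laser replicate 2 gave 0 and SePC-La replicate 2 gave 1. With only the 4 samples compared, 2 members passed at an adjusted p under 0.05 for SePC-La minus PC-La.

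Directions turned as a sample was left out for Il1b (-0.19 to 3.05), Il1rn (-0.39 to 0.34), Il1r1 (-0.16 to 0.60), Il1r2 (-0.60 to 0.28), Il33 (-0.73 to 2.82) and Nlrp3 (-0.18 to 0.21) in PC-La minus Laser, for Il1r1 (-0.698 to 0.0638), Il18 (-0.49 to 0.36), Il33 (-0.60 to 2.96) and the Il1b to Il1rn ratio (-0.43 to 2.06) in SePC-La minus Laser, and for Il18 (-0.841 to 0.0153) and Il33 (-0.0489 to 0.314) in SePC-La minus PC-La. Voom on recovered reads gave 0.00059 for Il1rn in PC-La minus Laser. Median-ratio scaling and quantile normalization gave 0.00678 and 0.0114 for Il18 in SePC-La minus Laser, and -0.00386 and -0.0497 for Nlrp3 in PC-La minus Laser. The cause was not tested. Il1a met the criterion in SePC-La minus PC-La under the smaller pseudocount (1.28) and voom (1.44). Under settings that kept all samples, 227 other values of single genes kept direction and side of the criterion. Median-ratio scaling took the tested genes at the criterion that were higher in SePC-La than in PC-La from 128 of 323 to 166 of 315.

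With the replicate number as a replicate block, 0, 2 and 2 members met the criterion, as without it. Among all 10853 tested genes, 133, 81 and 285 did. The numbers were not treated as pairing samples, since deviations of same-numbered samples correlated at 0.0862, -0.428 and -0.177.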

Other observations

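Among genes counted above only within their lists, and chosen after their values were seen, the chains of the interleukin-18 and interleukin-33 receptors were unequal in level. Il18rap, the accessory chain of the interleukin-18 receptor, measured 33.2 and 61.8 FPKM in Laser, 27.7 and 32.9 FPKM in PC-La, and 56.8 and 43.4 FPKM in SePC-La, whereas its ligand-binding chain Il18r1 stayed between 0.318 and 1.10 FPKM. Summed T cell and NK cell markers, the lymphocytes known for both chains, were at most 8.99 and 24.6 FPKM. Il1rl1, the interleukin-33 receptor, measured 48.9 and 13.2, 22.4 and 36.2, and 47.9 and 44.3 FPKM, and like Il33 was lowest in Laser replicate 2. Mmp3, a stromal metalloproteinase that interleukin-1 induces, measured 270.3 and 12.2 FPKM in Laser, 343 and 493 FPKM in PC-La, and 99.7 and 217 FPKM in SePC-La, the lowest again in that sample.

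Sod2, the mitochondrial superoxide dismutase and also chosen after its values were seen, had the smallest limma adjusted p among the interleukin-1 inducible genes. It measured 12.7 and 13.3 FPKM in Laser, 9.60 and 10.4 FPKM in PC-La, and 21.3 and 20.4 FPKM in SePC-La, with a log2 fold change from PC-La to SePC-La of 0.99 ± 0.12 and an adjusted p of 0.0763.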
